A study of Homo sapiens with 6 samples.

Results

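The genes of the mitochondrial ribosome were followed in HT29 cells, a human colon adenocarcinoma line, that had been deprived of a single amino acid. The members are the protein-coding genes of GENCODE release 44 whose symbol is MRPL or MRPS followed by a number, with or without a closing letter. They number 78 of the 60676 genes listed, 49 with an MRPL and 29 with an MRPS name, and lie on 21 chromosomes. Wild-type cells were kept for 48 h in control medium (untreated), in medium depleted of histidine (Hdepl) or in medium depleted of tryptophan (Wdepl), with 2 libraries of polyadenylated RNA per condition and 6 in all. Histidine was left out of an RPMI-based medium and tryptophan out of a DMEM F-12-based medium, and full RPMI is named as the control medium for cells treated this way for proteomics, but no control base is named for the RNA-seq samples, so an effect of the base medium and an effect of the missing amino acid cannot be told apart. The samples of a condition carry the numbers 1 and 2 without a statement that they came from separate cultures, and p-values therefore measure the spread between these samples.

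Mitochondria keep a small genome of their own, whose mRNAs encode core subunits of the respiratory chain and the ATP synthase. These mRNAs are translated inside the organelle by the mitochondrial ribosome, which has a small subunit that reads the message and a large subunit that forms the peptide bond. Its RNAs come from the mitochondrial genome, while all of its proteins are encoded in the nucleus, made in the cytosol and imported. Many of the proteins have a counterpart in bacterial ribosomes, and others are particular to mitochondria. Several names mislead as to place or function: MRPS30 and MRPS18A encode proteins of the large subunit, MRPL58 encodes a peptidyl-tRNA hydrolase built into the ribosome, and MRPS36 encodes a protein now known as a part of the 2-oxoglutarate dehydrogenase complex.

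The libraries held 46390819 to 64388876 reads, and in each of them 100% of the deposited values could be turned back into whole reads. Markers of a colon epithelial line summed to between 2032 and 3047 RPKM (reads per kilobase of exon and per 1000000 reads), whereas the summed markers of leukocytes lay between 0.546 and 4.26, those of fibroblasts at most at 0.163 and those of endothelium at most at 0.137. Both the epithelial sum (3013 and 3047) and the leukocyte sum (4.10 and 4.26) were highest in the Wdepl libraries, and their part in the results was not tested. The untreated libraries differed more from each other (chi-square per degree of freedom 8.77) than the Hdepl (4.03) or the Wdepl libraries (1.85), and 68 of the 78 members were higher in untreated replicate 2 than in replicate 1. In bulk RNA a change in how many cells express a gene and a change in RNA per cell cannot be told apart.

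Per length of annotated exon, the members formed a wide range. The median member stood at 18.6 and 18.9 RPKM in the untreated libraries, at 15.4 and 15.6 after histidine depletion and at 12.1 in both libraries after tryptophan depletion. On this scale the highest member in untreated cells was MRPL45, which anchors the ribosome to the inner membrane, at 101 in each library. MRPS35, a small subunit protein, followed at 89.5 and 95.0, and MRPL37, a large subunit protein particular to mitochondria, at 66.8 and 68.9. All members together took 0.417% and 0.429% of the reads in untreated cells and 0.413% and 0.416% in Hdepl cells. In Wdepl cells the share was 0.329% and 0.325%, below every other library. For comparison, cytosolic ribosomal protein genes took 8.28% and 8.58% of the reads in untreated cells, 6.28% and 6.47% in Hdepl cells, and 8.15% and 7.96% in Wdepl cells. RPKM and shares are scaled by all reads, whereas the tests below scale each library by a size factor. The Hdepl libraries had 64388876 and 57574730 reads at size factors of 1.11 and 0.987. The untreated libraries had 46390819 and 52607332 reads at 0.924 and 1.01. A gene with an unchanged share of reads therefore comes out higher in the histidine tests.

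Of the 78 members, 76 passed the filter of a mean of at least 10 normalised read counts. MRPL53 had no read in the untreated and Hdepl libraries, and MRPS24 had at most 9 normalised counts. Both share exon sequence with another gene on the same strand (72.8% and 23.2% of their exon bases), as do 14 members for over 10% of their bases. How reads in shared sequence were counted is not given in the sources used here. Of the 8 members with an untreated mean under 250 normalised counts, 7 had such an overlap. The part of the overlap in these low counts was not tested. In addition, 36 members have at least 1 pseudogene named after them, and reads from such copies may be split, so values of these members, MRPS6, MRPS10, MRPS18A, MRPS5, MRPS21 and MRPL9 among them, are less certain.

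Members were found on both sides after histidine depletion. Against untreated cells, 39 of the 76 tested members were higher and 29 were lower (limma, adjusted p under 0.05), while 8 did not pass the test. Among all 18288 genes tested, 39.1% were called higher and 38.2% lower. With a further limit of 0.5 on the absolute log2 fold change, 20 members were higher and 17 lower, or 26.3% and 22.4% of them, against 28.8% and 28.7% of all genes. The median absolute log2 fold change was 0.48 for the members and 0.67 for all genes, so the members spread less than the genes at large. The log2 fold changes ran from -1.86 to 1.62. Their median was 0.20, beside 0.01 for all genes, and it came to 0.11 with quantile normalization. These values rest on the size factors. The median RPKM of the members, scaled by all reads, was lower in Hdepl than in untreated libraries, and no calls were made on that scale. Among the 19 members with neither an overlap nor a pseudogene of their name, 8 were higher and 7 lower, with a median of 0.09.

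Genes of both subunits were among the largest rises after histidine depletion. MRPS6, whose bacterial counterpart sits on the platform of the small subunit, had 977 and 1033 normalised counts in untreated cells and 3201 and 2996 after histidine depletion, a log2 fold change of 1.62 (SE 0.059, limma adjusted p = 9.61e-18). MRPL47, the counterpart of a bacterial protein at the mouth of the exit tunnel, went from 1970.0 and 2192 to 6229 and 5964, or 2.93-fold. Every Hdepl value of these genes was above every untreated value. MRPS10, a protein of the head of the small subunit, had 3446 and 3848 counts in untreated and 10167 and 10139 in Hdepl cells. MRPS18A went from 1227 and 1318 to 3259 and 3282, and 50.9% of its exon bases are overlapped on the opposite strand. MRPS30 went from 3911 and 4264 to 10194 and 10164. The 3 genes thus rose by 1.48, 1.36 and 1.32 on the log2 scale, with no overlap between groups. MRPL18, a protein of the central protuberance, measured 1806 and 1907 in untreated and 4326 and 4327 in Hdepl libraries (2.33-fold). MRPL27, which reaches towards the peptidyl transferase centre in bacteria, measured 2327 and 2341 and then 5038 and 4841 (2.12-fold). MRPL52, a large subunit protein particular to mitochondria, had 1273 and 1258 and then 2517 and 2554 counts, a log2 fold change of 1.00.

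The falls after histidine depletion were of similar size. MRPL16, whose bacterial counterpart helps to place the incoming tRNA, had 3913 and 4207 normalised counts in untreated cells and 1089 and 1146 after depletion, which is 3.63-fold lower (log2 fold change -1.86, SE 0.057, limma adjusted p = 4.13e-19). MRPL1, which forms the stalk where spent tRNA leaves, had 1692 and 1789.8 and then 493 and 482 counts. MRPL13, an early-binding protein of the large subunit in bacteria, had 8336 and 9221 and then 2579.8 and 2720.2 counts. These values did not overlap between groups, and the falls were 3.56-fold for MRPL1 and 3.31-fold for MRPL13. MRPS5, near the path of the mRNA in the small subunit, went from 4268 and 4352 to 1734 and 1896 counts, and 23.3% of its exon bases are shared on the same strand. MRPL3, near the peptidyl transferase centre, went from 6824 and 7406 to 3449 and 3399. The log2 fold changes were -1.25 for MRPS5 and -1.05 for MRPL3, whereas MRPS2, MRPL30 and MRPL11 stood at -0.94, -0.91 and -0.88.

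**Figure D1:**
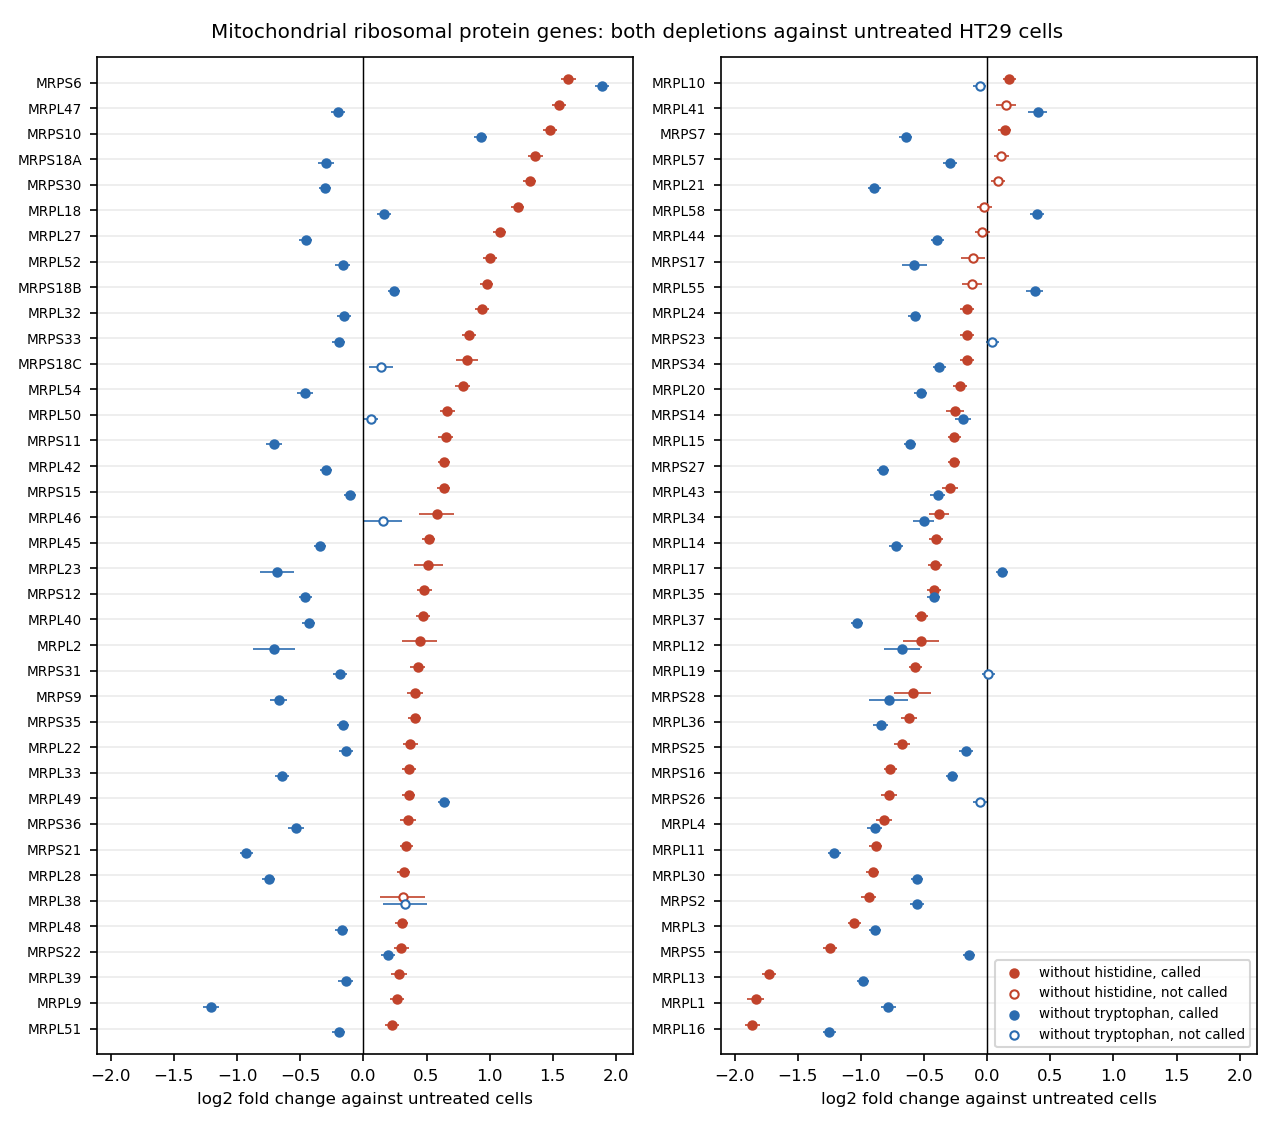
Log2 fold change against untreated cells (x axis) of each of the 76 members tested (y axis, ordered by the value after histidine depletion), in red for histidine depletion and in blue for tryptophan depletion. Bars are standard errors (2 libraries per group) and open circles did not pass the limma test. The red points run from -1.86 to 1.62, and most blue points lie left of 0, with MRPS6 at 1.89 as the highest.

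Tryptophan depletion moved most members downwards. Of the 76 tested, 58 were lower, 10 were higher and 8 did not pass the test (limma, adjusted p under 0.05). Among all 17960 genes tested, 34.8% were called lower and 36.1% higher. With a limit of 0.5 on the absolute log2 fold change, 30 members were lower and 3 higher, beside 21.1% and 21.2% of all genes. The median log2 fold change of the members was -0.36, beside 0.01 for all genes, with a range from -1.25 to 1.89. The 19 members with neither an overlap nor a pseudogene of their name gave 11 lower and 5 higher, with a median of -0.16, and at the limit of 0.5 the share lower was 26.3%, against 39.5% of all members tested.

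The falls after tryptophan depletion were led by large subunit genes. MRPL16 was again among them, with 3887 and 4163 normalised counts in untreated cells and 1751 and 1629.7 after depletion (log2 fold change -1.25, SE 0.051, limma adjusted p = 1.74e-50). MRPL11, at the base of the stalk that meets the elongation factors, had 3462 and 3670.4 and then 1588 and 1492 counts. MRPL9 had 1802 and 1855 in untreated and 786 and 798 in Wdepl libraries. Both MRPL11 and MRPL9 were 2.31-fold lower, and their groups did not overlap. MRPL37, particular to mitochondria, fell from 8493 and 9039.6 to 4213 and 4354 counts, and MRPL13 from 8279.6 and 9125 to 4427 and 4383. MRPS21 was the small subunit gene with the lowest fold change, going from 3064 and 3099 to 1653 and 1586. Its log2 fold change was -0.93, close to the values of MRPL21 (-0.89) and MRPL4 (-0.89), the latter of which lines the exit tunnel.

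Few members went up without tryptophan. MRPS6 had 970.3 and 1022 counts in untreated and 3734 and 3654 in Wdepl libraries, a 3.71-fold difference (log2 fold change 1.89, SE 0.054, limma adjusted p = 7.26e-69). MRPS10 went from 3423 and 3808 to 6687 and 7056, and MRPL49, a large subunit protein particular to mitochondria, from 6786 and 7054 to 10793 and 10762. These 3 genes are the members past the limit of 0.5, and none of their groups overlapped. The remaining rises were smaller: 0.40 for MRPL41, 0.39 for MRPL58, 0.38 for MRPL55, 0.24 for MRPS18B, 0.20 for MRPS22, 0.16 for MRPL18 and 0.12 for MRPL17. MRPL58 measured 1363 and 1429.8 counts in untreated and 1828 and 1838 in Wdepl cells, while its log2 fold change after histidine depletion was -0.02 (SE 0.061, limma adjusted p = 0.748).

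The comparisons with untreated cells share their control libraries, so the members' calls are given side by side and the depletions were then compared directly. Of the 76 members, 25 were lower after both depletions and 6 were higher after both, namely MRPL18, MRPL49, MRPS6, MRPS10, MRPS18B and MRPS22. A total of 29 members were higher without histidine and lower without tryptophan, and MRPL17 alone was lower without histidine and higher without tryptophan. The small rise of MRPL17 without tryptophan did not pass the test when either Wdepl library or untreated replicate 1 was left out (0.08 to 0.14 on the log2 scale), nor did those of MRPL18 without either Wdepl library (0.16) and of MRPS22 without Wdepl replicate 1 (0.16). Among the named falls without tryptophan, those of MRPL52 (-0.16), 1 of the 29, and MRPS5 (-0.15 and -0.13) were lost without either Wdepl library. That of MRPS25 was lost without Wdepl replicate 1 (-0.14). MRPL38, at 70 to 93 untreated counts, was called in neither. Of the 17413 genes tested in all 3 comparisons, 21.3% were lower after both depletions, 19.7% higher after both, 8.58% higher without histidine and lower without tryptophan, and 9.47% the reverse. With a log2 fold change of at least 0.5 on both sides, the 29 members came down to 2, MRPS11 (0.65 and -0.71) and MRPL23 (0.51 and -0.68), beside 2.27% of the genes. The others changed by less than 0.5 in at least 1 of the depletions.

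In the direct comparison, all 6 libraries were scaled together. There 49 members were higher in Hdepl than in Wdepl cells, 18 were lower and 9 did not pass the test (limma, adjusted p under 0.05), where 38.7% and 38% of 18264 genes were called higher and lower. At a limit of 0.5 on the absolute log2 difference, the numbers were 32 and 10, against 28.5% and 28.3% of genes. The median log2 difference was 0.41, beside 0.01 for all genes, and it came to 0.28 once the trend with transcript length and GC content was removed. The 19 members with neither an overlap nor a pseudogene of their name gave 11 higher and 8 lower, or 57.9% and 42.1%, with a median of 0.30. The 29 members higher without histidine and lower without tryptophan were higher in Hdepl than in Wdepl cells, and MRPL17 was lower, directions that their choice by these calls fixes. Of the 25 members lower after both depletions, 9 were higher in Hdepl cells, 9 were higher in Wdepl cells and 7 did not pass the test.

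Among the members with opposite calls, MRPL47 differed most between the depletions. On the joint scale it had 6229 and 5989.9 normalised counts in Hdepl and 1868 and 1802 in Wdepl libraries, a log2 difference of 1.73 (SE 0.051, limma adjusted p = 3.95e-15). MRPS18A stood at 3259 and 3297 against 1056 and 1041, and MRPS30 at 10193 and 10207 against 3399 and 3311. MRPL27 gave 5037 and 4862 against 1701 and 1744 counts. The log2 differences of these 3 genes were 1.64, 1.60 and 1.52, made up of a rise of over 1 without histidine and a smaller fall without tryptophan. For MRPL9 the larger part lay on the other side: it had 2157 and 2288 counts in Hdepl and 807 and 812 in Wdepl libraries, and its log2 fold changes against untreated cells were 0.27 and -1.21. MRPS11, on the platform of the small subunit, was near the middle, with 0.65 and -0.71. MRPS21 and MRPL54 followed with log2 differences of 1.25 and 1.23.

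In the other direction, MRPS5 had 1734 and 1904 counts in Hdepl and 4002 and 3912 in Wdepl libraries on the joint scale, a log2 difference of -1.12 (SE 0.048, limma adjusted p = 5.38e-13). MRPL1 had 493 and 484 against 1075 and 975, or -1.06. MRPL1 fell after both depletions and MRPS5 as well, but the log2 fold change of MRPS5 without tryptophan was -0.14 and did not pass the test when either Wdepl library was left out (-0.15 and -0.13). MRPL13 (-0.76), MRPS26 (-0.73), MRPL16 (-0.63), MRPL19 (-0.59), MRPL17 (-0.55) and MRPS25 (-0.52) were also lower in Hdepl than in Wdepl cells. MRPS6 was higher after both depletions and 0.28 lower on the log2 scale in Hdepl than in Wdepl cells, where the counts were 3201 and 3009 against 3834 and 3720.3.

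**Figure D2:**
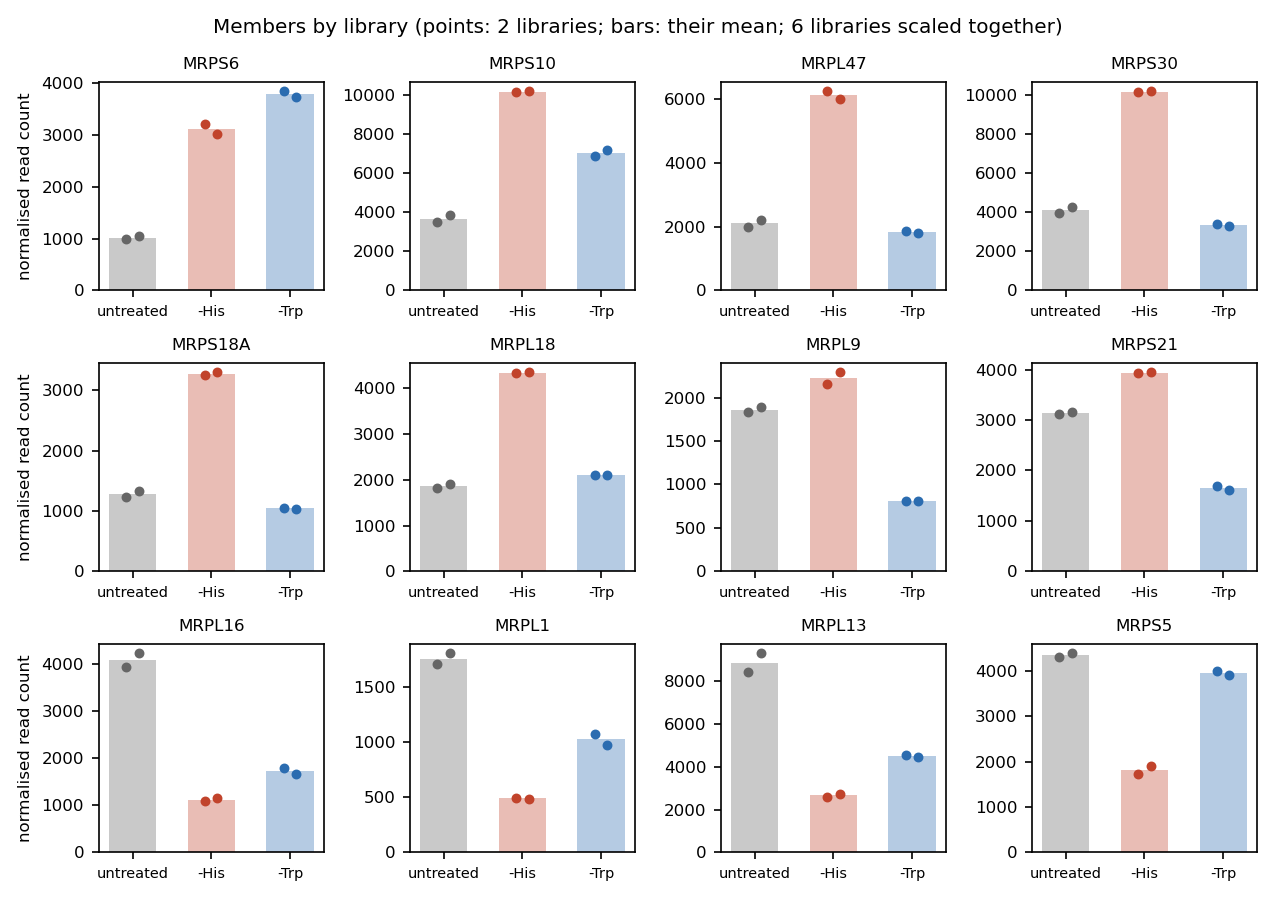
Normalised read count (y axis, linear, from 0) of 12 members in the 6 libraries scaled together. Points are the 2 libraries of a condition and bars their mean, for untreated cells (grey), histidine depletion (red) and tryptophan depletion (blue). MRPS6 and MRPS10 are high in both depletions, MRPL47, MRPS30 and MRPS18A in histidine depletion, and MRPL16, MRPL1 and MRPL13 are below untreated cells in both.

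The members were next described by where their proteins lie in the ribosome. These place groups were drawn up from textbook structure after the values were known, and they are given as counts. They are not full lists of the proteins at each place, so their counts hold for the members listed alone. For reading them, 51.3% of the members and 39.1% of all genes were higher without histidine and 38.2% of each lower, while without tryptophan 13.2% of the members and 36.1% of all genes were higher and 76.3% and 34.8% lower. In the stalk (MRPL10, MRPL11 and MRPL12), MRPL11 and MRPL12 were lower after both depletions, and MRPL10 was 0.17 higher without histidine and at -0.06 without tryptophan (limma adjusted p = 0.254). MRPL12, the stalk protein that contacts elongation factors, had 163 and 209 counts in untreated and 126 and 131 in Hdepl libraries, with 69.5% of its exon bases shared with another gene on the same strand. Without untreated replicate 2 its log2 fold change in Hdepl cells was -0.35 in place of -0.52 and did not pass the test (limma adjusted p = 0.0654). Around the peptidyl transferase centre, all of MRPL2, MRPL3, MRPL16 and MRPL27 were lower without tryptophan, while without histidine MRPL2 and MRPL27 were higher and MRPL3 and MRPL16 lower. Along the exit tunnel (MRPL4, MRPL17, MRPL22, MRPL23, MRPL24, MRPL45 and MRPL47), 4 members were higher and 3 lower without histidine, and 6 were lower and 1 higher without tryptophan. Among the 5 members listed for the central protuberance (MRPL18, MRPL38, MRPL40, MRPL46 and MRPL48), 4 were higher without histidine and MRPL38 was not called. Without tryptophan 1 of them was higher and 2 were lower. Members left out of this list may lie there as well, and MRPL55 and MRPL58, in no place group, were not called without histidine (-0.12 and -0.02).

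The S18 family has 3 genes in humans, MRPS18A, MRPS18B and MRPS18C, of which bacteria have a single counterpart. All 3 were higher without histidine, by 0.82 to 1.36 on the log2 scale. Without tryptophan MRPS18B was 0.24 higher and MRPS18A was at -0.30, both past the test, and MRPS18C was at 0.14 (limma adjusted p = 0.177). MRPS12, whose bacterial counterpart guards the accuracy of decoding, had 3301 and 3835 counts in untreated and 4929 and 5006 in Hdepl libraries (log2 fold change 0.48), and 2462 and 2669 in Wdepl libraries against 3279 and 3796 (-0.46). MRPL44, an RNase III-like protein of the large subunit, was at -0.04 without histidine (SE 0.056, limma adjusted p = 0.550) and at -0.40 without tryptophan. MRPS36 was higher by 0.36 without histidine and at -0.53 without tryptophan, both past the test.

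The members were also grouped by name and by ancestry. MRPL55 and MRPS36 were put in neither ancestry group, and their values without tryptophan were 0.38 and -0.53. The median log2 fold change without histidine was 0.13 for the MRPL genes and 0.35 for the MRPS genes, and without tryptophan it was -0.43 and -0.24. The 46 tested members with a bacterial counterpart had a median of -0.01 without histidine, with 22 higher and 22 lower, and the 28 particular to mitochondria had 0.30, with 16 higher and 7 lower. In percent these were 47.8% higher and 47.8% lower, and 57.1% and 25%, beside 39.1% and 38.2% of all genes. Without tryptophan the medians were -0.57 and -0.18. At a limit of 0.5, 27 of the 46 members with a bacterial counterpart were lower without tryptophan, whereas among the 28 particular to mitochondria the count was 2, MRPL37 and MRPS27. These are 58.7% and 7.14%, beside 21.1% of all genes. The direct comparison of the depletions gave similar medians, 0.37 and 0.41. The difference between these groups of genes was not tested.

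**Figure D3:**
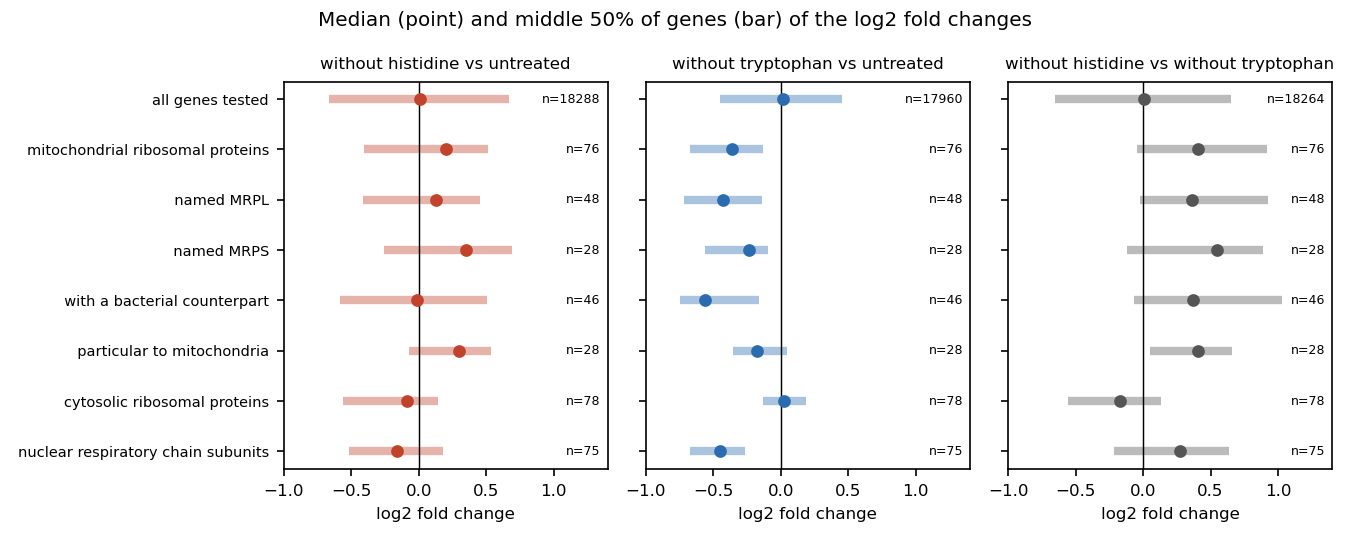
Log2 fold changes (x axis) of groups of genes (y axis) in the 3 comparisons, with the median as a point, the middle 50% of genes as a bar and the number of genes tested as n. The members lie at a median of 0.20 without histidine, -0.36 without tryptophan and 0.41 between the depletions, and cytosolic ribosomal protein genes at -0.09, 0.02 and -0.17.

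Ribosomal proteins of the cytosol and subunits of the respiratory chain were set beside the members. The shares of all genes to read these and the following lists against were 39.1% higher and 38.2% lower without histidine, 36.1% and 34.8% without tryptophan, and 38.7% and 38% between the depletions. Of 78 cytosolic ribosomal protein genes, 18 were higher and 36 lower without histidine (median -0.09), and 22 were higher and 23 lower without tryptophan (median 0.02). Of 75 nuclear genes for respiratory chain subunits, 21 were higher and 41 lower without histidine (median -0.16), and 4 were higher and 63 lower without tryptophan (median -0.45). Between the depletions, 43 respiratory chain genes were higher in Hdepl cells and 23 lower, while for cytosolic ribosomal protein genes the counts were 22 and 43.

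Further proteins of the mitochondrial ribosome carry other names. GADD45GIP1 had 1188 and 1281 counts in untreated and 1900 and 2061 in Hdepl libraries (log2 fold change 0.68), and 527 and 570 in Wdepl libraries against 1180 and 1267 (-1.16). Its difference between the depletions was 1.82, above that of any MRPL or MRPS gene. DAP3, a GTP-binding protein of the small subunit, moved the other way, from 8194 and 8438 to 3679 and 3730 counts without histidine (-1.17), and stood at 7996 and 8060 against 8139 and 8350 without tryptophan (-0.04, limma adjusted p = 0.466). PTCD3, which binds RNA in the small subunit, was higher by 0.71 without histidine and at -0.25 without tryptophan, both past the test. CHCHD1 was lower after both depletions, with -0.41 and -0.50. AURKAIP1 was at 0.20 without histidine, past the test, and at -0.09 without tryptophan, where it was not (limma adjusted p = 0.120).

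The RNAs that the ribosome is built on and reads come from the mitochondrial genome. Among its 13 mRNAs, 7 were lower and 6 not called without histidine, and 1 was higher and 6 lower without tryptophan, with log2 fold changes between -0.51 and 0.19. Among all genes 38.2% and 34.8% were lower. Each of the 13 was 1.30 to 1.44 times as high in untreated replicate 1 as in replicate 2, which limits these calls. The small ribosomal RNA, MT-RNR1, had 22379.8 and 15184 counts in untreated and 33518 and 29268 in Hdepl libraries (log2 fold change 0.76), and 27906 and 20988 in Wdepl libraries against 22229.6 and 15026 (0.41). The large ribosomal RNA, MT-RNR2, had 156743 and 118597 counts in untreated and 192820.0 and 167981 in Hdepl libraries (0.40), and 264980.0 and 264064 in Wdepl libraries against 155691 and 117364 (0.97). Both RNAs were thus higher after each depletion (limma, adjusted p under 0.05). Between the depletions they parted, with MT-RNR1 higher (0.34) and MT-RNR2 lower (-0.58) in Hdepl than in Wdepl cells, both past the test. The libraries were made from polyadenylated RNA and the untreated values of both genes differed widely between replicates, which limits what they say of ribosomal RNA.

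The transcription machinery of mitochondria differed between the depletions. TFAM, which packages the mitochondrial genome and helps to start its transcription, had 5999 and 6497 counts in untreated and 7566 and 7707 in Hdepl libraries, but 2583 and 2517 in Wdepl libraries against 5958 and 6429. This was a log2 fold change of 0.29 without histidine and of -1.28 without tryptophan. TFB2M, the partner of the mitochondrial RNA polymerase at promoters, went from 1715 and 1868 to 5217 and 5194 without histidine (1.54) and was at 0.06 without tryptophan (limma adjusted p = 0.318). All 4 genes of this list were higher in Hdepl than in Wdepl cells, beside 38.7% of all genes.

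Genes that assemble or serve the ribosome moved in both directions. Of 28 assembly genes, 10 were higher and 13 lower without histidine, and 9 were higher and 13 lower without tryptophan. In percent these were 35.7% and 46.4%, and 32.1% and 46.4%. TFB1M, which methylates the small ribosomal RNA, was lower by both tests, with -1.32 and -0.33, and NGRN, needed for the large ribosomal RNA, was higher by both, with 1.51 and 0.30. Of 16 translation factors, 6 were higher and 7 lower without histidine, and 7 were higher and 5 lower without tryptophan, or 37.5% and 43.8%, and 43.8% and 31.2%. The release factor MTRF1L stood at 1.24 and -0.40, and TACO1, an activator of cytochrome oxidase translation, at -1.26 and 0.22.

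Of 17 mitochondrial aminoacyl-tRNA synthetases, which load amino acids onto tRNA, 5 were higher and 9 lower without histidine, and 13 were lower and 4 not called without tryptophan. The shares lower were 52.9% and 76.5%, beside 38.2% and 34.8% of all genes. The synthetases of the depleted amino acids were looked at by name. HARS2, for histidine, had 3080.0 and 3158 counts in untreated and 1511 and 1509.5 in Hdepl libraries (log2 fold change -1.05), and was at -0.19 without tryptophan. WARS2, for tryptophan, had 1602 and 1651 counts in untreated and 948 and 966 in Wdepl libraries (-0.76), and was at 0.20 without histidine. All 4 of these values passed the test.

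The depleted amino acids are themselves part of the members. The coding sequences of the 76 tested members held a median of 5 histidine codons (2.52% of codons) and of 4 tryptophan codons (1.55%). All protein-coding genes tested had medians of 2.45% and 1.08%, and cytosolic ribosomal protein genes of 2.18% and 0.733%. MRPL41 has no histidine codon, MRPL37 has 15, and 7 tested members, among them MRPS6, MRPL10 and MRPL11, have no tryptophan codon. Across the 76 genes, the share of histidine codons had a Spearman rho of -0.08 with the log2 fold change without histidine, and the share of tryptophan codons a rho of 0.08 with that without tryptophan. Genes are not independent replicates, and these values are given as a description of weak relations. Among the members without tryptophan codons, MRPS6 and MRPL11 lay at opposite ends, with log2 fold changes of 1.89 and -1.21 after tryptophan depletion.

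Promoter sequence was looked at because 30 members were called in opposite directions by the depletions. Promoters, from 250 bases before to 50 bases after the start site, were found in the RefSeq table (GRCh38.p14) for 69 of the 78 members. They were searched on both strands for CCGGAAG, the core of sites bound by ETS factors such as GABP, for GCGC followed by any base and TGCGC, the core of sites of nuclear respiratory factor 1, and for AAGATGGCG, a form of the YY1 site. These motifs do not contain each other. The search was made after the fold changes were known. The ETS-type motif was in 42.0% of the members' promoters, beside 10.7% of all 27305 promoters and 18.8% of those of protein-coding genes tested. The NRF1-type motif was in 11.6%, 6.28% and 11.3%, and the YY1-type motif in 18.8%, 1.85% and 3.80%. A match is a description of letters and not a bound site.

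The windows below show 30 bases around the motif, in capitals, for some of the named members, read 5′ to 3′ on the strand of the gene. The first 4 hold an ETS-type motif upstream of the start site, in genes that rose without histidine (MRPL47, MRPL27 and MRPS18A) and in MRPL3, which fell. Their places are chr3:179604659-179604688, chr17:50373218-50373247, chr6:43687804-43687833 and chr3:131502985-131503014, all on the minus strand. The window of MRPL17, the gene that was lower without histidine and higher without tryptophan, holds an NRF1-type motif at chr11:6683402-6683431 on the minus strand.
MRPL47: ggcttgagacgCCGGAAGtgacgctatcgt
MRPL27: ccacgcagggcCCGGAAGtagatctcctga
MRPS18A: ggcgctacgttCCGGAAGcggaaatggacg
MRPL3: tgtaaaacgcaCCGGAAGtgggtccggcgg
MRPL17: aggctctgatGCGCATGCGCaaacacgttc

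The YY1-type motif was then read against the fold changes. Of 12 tested members whose promoter holds it, 10 were higher, 1 (MRPL36) was lower and MRPL38 did not pass the test, with a median log2 fold change of 0.80. Of the 55 tested members with a promoter but without it, 25 were higher and 24 lower, with a median of -0.02. Without tryptophan the medians were -0.15 and -0.39. Among all protein-coding genes tested with a promoter in the table, 63.5% of the 406 with the motif were higher without histidine and 24.9% lower (median 0.41), against 42.0% and 41.6% of the 10273 without it (median 0.00). Without tryptophan the direction was the other, with 34.5% of 403 such genes higher and 45.9% lower (median -0.08), against 40.2% and 38.7% of 10125 (median 0.01), whereas the members with the motif lay above those without it. The pattern was seen in these data and was not tested. The letters AAGATGGCG hold an ATG. In 10 of the 13 promoters with the motif its match lay at or after the start site, and in 9 it spans the start codon of the canonical transcript, so that it is also the beginning of the protein. Windows are shown for 4 members among the rises, at chr14:22829813-22829842 (plus strand), chr6:42217833-42217862 (minus), chr6:30617853-30617882 (plus) and chr5:44808950-44808979 (plus), of which the MRPL52 window is upstream of the start.
MRPL52: acccagattcAAGATGGCGacttcctgctt
MRPS10: cgggaccggcAAGATGGCGgcgcggacagc
MRPS18B: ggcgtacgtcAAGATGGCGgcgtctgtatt
MRPS30: atcgcgggcaAAGATGGCGgcggccaggtg

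The ETS-type and NRF1-type motifs were counted in the same way, and differences between the groups were not tested. With the ETS-type motif, 17 of 28 tested members were higher and 9 lower without histidine, and 3 were higher and 21 lower without tryptophan. Without it the counts were 18 and 16 of 39, and 7 and 29. Of the 8 members with the NRF1-type motif, 3 were higher and 4 lower without histidine (median -0.15), and of the 59 without it 32 were higher and 21 lower (median 0.28). Without tryptophan 1 was higher and 7 lower with this motif (median -0.45), and 9 and 43 without it (median -0.28). Among all protein-coding genes tested with a promoter in the table, 47.5% with the ETS-type motif were higher and 37.3% lower without histidine, and 36.6% and 42.4% without tryptophan. For those without it the shares were 41.7% and 41.8%, and 40.8% and 38.1%. With the NRF1-type motif they were 44.7% and 39.7%, and 38% and 41.8%, and without it 42.6% and 41.1%, and 40.2% and 38.6%. The transcripts of the factors that bind such motifs, or that work with them, were read from the same libraries. GABPA, the ETS subunit of GABP, was at 0.78 without histidine and 0.17 without tryptophan, both past the test. NRF1 was at 0.30 and 0.59, both past the test, and YY1 at 0.00 (limma adjusted p = 0.956) and 0.43, the latter past the test. PPRC1, a coactivator of the PGC-1 family, had 6183 and 6452 counts in untreated and 12607 and 12752 in Hdepl libraries (1.01), and 4795 and 4930.5 in Wdepl libraries against 6141 and 6385 (-0.36). PPARGC1B of the same family went from 652 and 663 to 156 and 158 counts without histidine (-2.06) and stood at 0.00 without tryptophan (limma adjusted p = 0.965). PPARGC1A, the third of the family, was higher after both, by 0.66 and 0.25. MYC was at -0.08 without histidine (limma adjusted p = 0.167) and lower by 0.81 on the log2 scale without tryptophan.

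Many members share their promoter region with a gene on the other strand. The start of 26 of the 78 members (33.3%) lay within 1000 bases of the start of a protein-coding gene that is read in the opposite direction, which held for 9.45% of 19879 protein-coding genes. The tested members with such a partner had a median log2 fold change of 0.40 without histidine and -0.45 without tryptophan, and those without had -0.03 and -0.30. The difference between these groups was not tested. MRPL46 and MRPS11 are partners of each other, with starts 320 bases apart, and were higher without histidine by 0.58 and 0.65. Without tryptophan MRPS11 was lower by 0.71 on the log2 scale, and MRPL46 was at 0.16 (limma adjusted p = 0.356) from 111 to 146 counts. With MRPL46 and MRPS11 counted as a single pair there were 25 pairs, and the partner of MRPL32 was not tested. Both genes were called without histidine in 20, with the same direction in 12 and opposite directions in 8. Without tryptophan both were called in 16, with 10 in the same direction. Among all genes, 39.1% were higher and 38.2% lower without histidine, and 36.1% and 34.8% without tryptophan. Pairs of this kind were not counted over all genes, so agreement of the members with their partners was not tested. MRPL47 and its partner NDUFB5, a subunit of respiratory complex I, were both higher without histidine (1.55 and 0.43) and both lower without tryptophan (-0.20 and -0.37). MRPL27 and its partner EME1, a DNA repair endonuclease subunit, went opposite ways without histidine, with 1.08 and -1.30.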

How the data were processed

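Polyadenylated RNA of 6 HT29 samples was sequenced with a stranded protocol. Per the submitters' notes and the study's methods, reads were aligned with STAR 2.7.10a to GRCh38 and counted with HTSeq 2.0.5. For the counting, the methods name exons of protein-coding genes and an earlier GENCODE release than the one used here. The deposited values also list other genes. The authors divided the counts by DESeq2 size factors and deposited these normalised counts (unit signal), 1 table for each depletion, with the tables normalised separately. Use of strand and molecular identifiers in counting is not given in the sources used here.

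Whole reads were recovered for 100% of values (tolerance 0.01). For the tests, log2(normalised count + 1) went into limma (3.58.1, R 4.3.3; two-sided, with trend) where the gene's mean reached at least 10, within each table, with Benjamini-Hochberg adjustment over all genes and a threshold of 0.05. Fold changes on this scale understate those of low genes. The direct comparison used the reads of all 6 libraries with joint median-of-ratios size factors. On the recovered reads, edgeR 4.0.16 called 7169 genes higher and 7111 lower without histidine and 6490 and 6349 without tryptophan, and DESeq2 1.42.0 6330 and 6154, and 5423 and 5354. Other alternatives were pseudocounts, filters, no trend, quantile normalization, a replicate block, removal of the length and GC trend by loess, and each library left out. RPKM and exon overlaps used the exons of GENCODE 44, merged per gene, a later release than the one named for the counting. The code was tested on simulated data. Tables and plots used Python 3.11.15, pandas 2.3.3 and matplotlib 3.10.9.

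The members and gene lists were chosen with earlier results of these data known. The named members were, per comparison, the 8 largest rises and falls with an adjusted p under 0.05, at least 100 mean counts in the higher group and no overlapping values, the 6 largest differences between depletions, up to 6 members called in opposite directions, and 8 fixed by name. To these come the genes of the mitochondrial ribosome with other names, HARS2 and WARS2. Other genes, MRPL45, MRPS35, MRPL2, MRPL10, MRPL36 and MRPL38 among them, were named after their values were seen.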

Additional observations from a re-analysis of the deposited data

How the results depend on the processing

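The main limits are 2 libraries per condition, base media that differ between the depletions, shared exons and pseudogenes of some members, and counting that is not described in full. No call of a member turned into a call in the opposite direction under the alternatives that give calls. Removal of the length and GC trend was run for the medians alone. With a limit of 0.5 on the absolute log2 fold change, the counts of members higher and lower were 20 and 17 without histidine, 3 and 30 without tryptophan, and 32 and 10 between the depletions. Quantile normalization gave a median of 0.115 without histidine (0.201 in the reported fit) and 0.353 between the depletions, where edgeR gave 0.384 and removal of the length and GC trend 0.276. That removal gave -0.292 without tryptophan. Limma without the trend kept 50 of the 68 calls without tryptophan and 60 of 68 without histidine.

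Leaving out each library in turn, the members higher and lower numbered 36 to 42 and 25 to 30 without histidine (median 0.144 to 0.236), 7 to 11 and 49 to 59 without tryptophan (median -0.397 to -0.303), and 48 to 49 and 17 to 18 between the depletions (median 0.394 to 0.421).

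Calls of named members that were lost or gained in this way were those of MRPL12, MRPL21, MRPL41 and MRPL55 without histidine, of MRPL17, MRPL18, MRPL52, MRPS5, MRPS22 and MRPS25 without tryptophan, and of MRPL41 between the depletions, with log2 values from -0.348 to 0.258.

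The sample numbers did not pair the samples (correlation of deviations 0.042, 0.0020 and -0.041). A fit with a replicate block gave 41 higher and 29 lower without histidine, 10 and 58 without tryptophan, and 49 and 18 between the depletions.

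Signs that changed were those of members not called in the reported fit. Without histidine, quantile normalization gave -0.00366 for MRPL21, 0.0790 for MRPL55 and 0.0461 for MRPL58. With a library left out, MRPL58 ran from -0.0597 to 0.0151 and MRPL44 from -0.0924 to 0.0167. For MRPL19 without tryptophan, DESeq2 gave -0.00123, and leaving out a library gave -0.0282 to 0.0467, with -0.000576 without Wdepl replicate 1. MRPL12 between the depletions ran from -0.0381 to 0.308. The cause was not tested.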
